A study of Homo sapiens with 2 samples.

Results

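Vimentin (VIM) and the 7 keratin genes KRT7, KRT8, KRT10, KRT18, KRT19, KRT80 and KRT81 were followed in single cells of MDA-MB-231 mammospheres. The 8 genes were taken by name from a table of 19826 genes, and all 8 were present. They were chosen from the levels of these same 2 libraries, so their levels, ratios and balance below are a description, with no test. MDA-MB-231 is a long-established human line from a breast cancer without hormone receptors or HER2 amplification, and it is known for its mesenchymal look. One library came from cells kept for 30 days in flat culture with 2 mM metformin, a biguanide given to people with diabetes, in DMEM high in glucose. The other came from cells adapted in the same medium with 0 mM metformin, which the labels call wild type. Cells of both doses were then grown for 10 days as mammospheres, floating spheres on low-attachment plates, and taken apart with trypsin and EDTA. Each dose had 1 library of 1 line, so no difference has a replicate check and no test was made. All intervals are 95% intervals that cover counting error only. A library difference cannot be told apart from one of dose.

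Intermediate filaments are the flexible fibres of the cytoskeleton. VIM, a type III filament protein, assembles with itself and is known for its high level in mesenchymal cells and in carcinoma cells that have lost epithelial character. Keratins are the filament proteins of epithelia and form only as pairs of a type I (acidic) and a type II (basic) chain. KRT8 (type II) and KRT18 (type I) are the basic pair of simple epithelia such as the luminal layer of the breast, where KRT7 (type II) and KRT19 (type I) accompany them. KRT10 (type I) is known from the upper layers of the epidermis, KRT80 (type II) from differentiating epithelia, and KRT81 (type II) from the hair cortex.

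The coding sequences of the GENCODE release 29 transcripts (GRCh38) show how near the genes stand to each other. Over the whole coding sequence, alignment to VIM gave 45.6% (KRT10) to 55.3% (KRT7) identical columns. Within type II, KRT8 was 66.8% identical to KRT7, 65.1% to KRT81 and 57.9% to KRT80. Within type I, KRT18 was 58.1% identical to KRT19 and 47.3% to KRT10. KRT86, a near relative of KRT81, was 90.1% identical to it over the coding sequence, but only 52.0% over the last 300 bases of the transcripts.

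Where the counts were ambiguous follows from the annotation. KRT8 and KRT18 are neighbours on chromosome 12 and their annotated spans overlap by 1084 bases on opposite strands. KRT86 overlaps KRT81 on the opposite strand and KRT7 on the same strand, and VIM overlaps the antisense gene VIM-AS1 by 1727 bases on chromosome 10. GENCODE release 29 names 50 processed copies of KRT8 and 68 of KRT18, and 0 rows of the table bear such a name. Whether counting used strand is not given in the sources used here, so the counts of KRT8, KRT18, KRT81 and VIM carry this uncertainty. The annotated spans of KRT7 and KRT86 overlap by 2887 bases on the same strand, where counting by strand would not tell them apart. VIM-AS1 had 34 unique molecular identifiers (UMIs, tags that mark single captured transcripts) at 2 mM and 82 at 0 mM, and KRT86 had 35 and 40.

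The 2 mM library held 991 cells with 3264343 UMIs, and the 0 mM library 1000 cells with 4403045 UMIs. Their medians were 2509 and 3386 UMIs per cell. The libraries shared 0 cell barcodes, and 179 and 100 pairs of barcodes differed by 1 base within a library. Merging such barcodes left 883 and 931. Whether they are cells split over barcodes was not tested, so each barcode is called a cell here and some cells may be counted more than once. Of the markers of leukocytes, fibroblasts, endothelium, mammary basal cells, hormone receptor positive luminal cells and keratinocytes that were in the table, the summed level of each type was 0.306 to 17.8 CPM (a gene's UMI count scaled to the library total) at 2 mM and 0.908 to 18.9 CPM at 0 mM. PTPRC had 1 and 0 UMIs and COL1A1 3 and 5, at 2 mM and at 0 mM. The 6 markers of a mesenchymal breast cancer line summed to 3191 and 4010 CPM, and all 6 were detected. Among markers of the other types the highest were GATA3 with 57 and 64 UMIs, CD68 with 33 and 76 and ACTA2 with 33 and 69. The part of such cells in the results was not tested.

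VIM was lower at 2 mM, and no keratin that could be compared was past 1.5-fold in either direction. At 2 mM the 5210 VIM UMIs gave 1596 CPM (1553 to 1640), against 3271 CPM (3218 to 3325) from 14402 UMIs at 0 mM. The ratio of 2 mM over 0 mM was 0.488 (0.473 to 0.504). A minimum of 50 CPM in 1 library or the other and of 50 UMIs over both left 4105 genes, among which VIM had rank 21 from the lowest ratio. VIM was the single one of the 7 genes past the minimum that was at least 1.5-fold lower, where 3.31% of all genes compared were. None was at least 1.5-fold higher, where 5.04% were. Since the genes were chosen by this contrast, nothing is read from these counts.

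**Figure D1:**
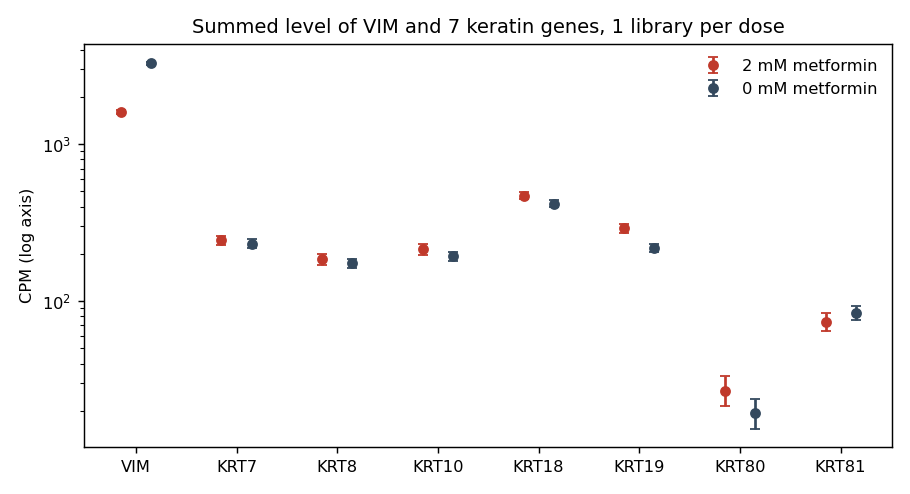
Level of each gene in CPM (log axis) in the 2 mM library (red) and the 0 mM library (dark blue), with exact Poisson 95% intervals as bars. VIM lies at 1596 and 3271 CPM, whereas the 2 points of each keratin lie within 1.5-fold of each other. The bars of KRT18 and of KRT19 do not overlap between the libraries.

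The type I keratins had the higher ratios among the abundant keratins, but only the KRT19 interval lay clear of those of the type II genes KRT7 and KRT8. The intervals of KRT10 and KRT18 overlapped both. KRT19, the type I keratin that lacks the usual tail domain, stood at 291 CPM (273 to 310) with 2 mM against 219 CPM (205 to 233) with 0 mM, so its ratio was 1.33 (1.22 to 1.46). KRT18 had 468 CPM (445 to 492) and 418 CPM (399 to 438), a ratio of 1.12 (1.05 to 1.2). KRT10 had 214 and 194 CPM, a ratio of 1.11 whose interval (0.998 to 1.22) included 1. The KRT19 interval lay above that of KRT18, whereas those of KRT10 and KRT18 overlapped.

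The type II keratins lay close to 1 or on both sides of it. KRT7, a simple-epithelium keratin, had 244 and 233 CPM at 2 mM and 0 mM, a ratio of 1.05 (0.952 to 1.15). KRT8 had 186 and 174 CPM, a ratio of 1.07 (0.958 to 1.19). KRT81 had the lowest ratio of the keratins, 0.876 (0.742 to 1.03), at 73.8 and 84.3 CPM. KRT80 had 27.0 and 19.3 CPM from 88 and 85 UMIs. It did not pass the minimum, and its ratio of 1.40 (1.02 to 1.90) is given as a value only. The intervals of KRT7, KRT8 and KRT81 all included 1.

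**Figure D2:**
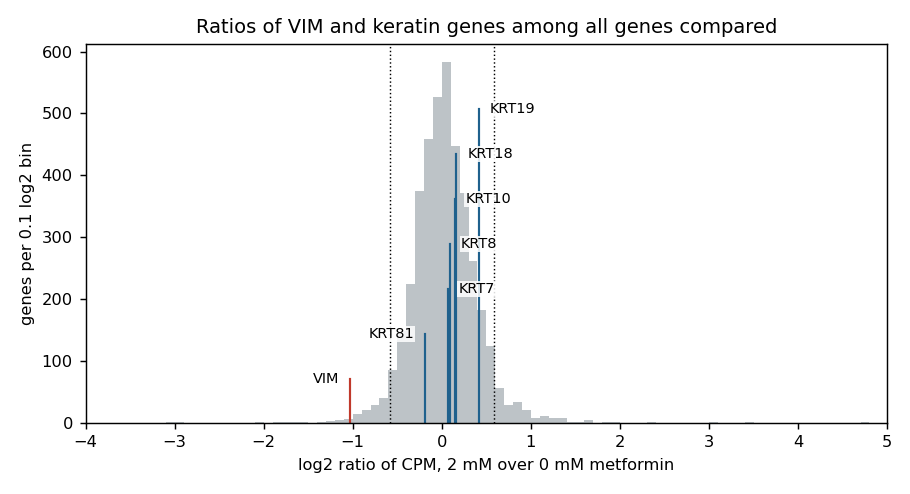
Number of genes (grey bars) by log2 ratio of CPM, 2 mM over 0 mM, among 4105 genes compared, with the 7 genes that passed the minimum drawn as lines of arbitrary height. The dotted lines mark 1.5-fold. VIM lies at -1.04 and the 6 keratins between -0.19 and 0.41.

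Summed over the 7 keratins, the level was 1504 CPM with metformin against 1341 CPM without, and the ratio was 1.12 (1.08 to 1.16). The composition of the keratin sum differed little. KRT18 made up 31.2% of the keratin UMIs in both libraries. KRT8 made up 28.4% (26.5% to 30.3%) of the UMIs of the KRT8 and KRT18 pair at 2 mM and 29.4% (27.6% to 31.2%) at 0 mM, a difference of -0.99 points (-4.68 to 2.72). KRT19 took 19.4% (18.3% to 20.5%) of the keratin UMIs at 2 mM and 16.3% (15.4% to 17.3%) at 0 mM, and KRT81 took 4.91% (4.32% to 5.55%) and 6.28% (5.68% to 6.93%). The type II chains together took 35.2% (33.9% to 36.6%) at 2 mM and 38.1% (36.8% to 39.3%) at 0 mM. The intervals of these last 3 shares did not overlap between the libraries.

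With TMM factors (a trimmed mean of ratios over genes) all ratios were multiplied by 0.942, which put VIM at 0.460 and the keratin sum at 1.06. The ratio of KRT7, whose interval spans 1 under both scalings, lay at 0.985 and that of KRT8 at 1.01. KRT10, KRT18, KRT19 and KRT80 lay above 1 and KRT81 below it. With TMM factors the interval of KRT18 (0.985 to 1.13) included 1, and that of KRT81 (0.699 to 0.973) did not.

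The balance of VIM to keratins does not depend on the scaling, because both counts come from the same library. It is a share of UMIs that were not divided by transcript length, so it compares libraries and not the amounts of the proteins. VIM took 51.5% (50.5% to 52.5%) of the 10118 UMIs of the 8 genes at 2 mM, against 70.9% (70.3% to 71.5%) of 20306 UMIs at 0 mM. The difference was -19.4 points (-21.0 to -17.8, from the outer bounds of both intervals). The counting intervals of these pooled shares did not overlap. Against KRT8 and KRT18 alone, VIM took 70.9% at 2 mM and 84.7% at 0 mM.

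Cell by cell, fewer cells held VIM UMIs at 2 mM and those that did held fewer. To compare cells at 1 depth, 1000 UMIs were drawn from each cell, which left out 191 shallower cells at 2 mM and 56 at 0 mM. VIM was found in 75.2% (72.1% to 78.2%) of 800 cells at 2 mM and in 91.3% (89.3% to 93%) of 944 cells at 0 mM. Without thinning the shares were 88.3% and 97.7%, and the mean over all possible thinnings was 73.3% and 90.5%. The mean was 1.60 VIM UMIs per thinned cell at 2 mM and 3.21 at 0 mM. Cells with 5 or more VIM UMIs made up 4.62% and 23.4%, and the highest cell had 9 at 2 mM and 24 at 0 mM. The variance of VIM over cells was 1.41 times its mean at 2 mM and 1.98 times at 0 mM.

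The keratins showed no such gap. Any of the 7 keratins was found in 72.6% (69.4% to 75.7%) of thinned cells at 2 mM and in 68.5% (65.5% to 71.5%) at 0 mM, with means of 1.5 and 1.36 UMIs. KRT18 was found in 37.1% (33.8% to 40.6%) and 31.9% (28.9% to 35.0%) of cells, and KRT19 in 22.6% (19.8% to 25.7%) and 16.6% (14.3% to 19.2%). Before thinning, KRT18 was found in 59.6% and 65.6% of cells, in the order of the depths. The KRT19 intervals did not overlap, whereas those of KRT18 did. Over all possible thinnings the mean was 35.2% and 33.0% for KRT18 and 23.1% and 17.7% for KRT19. KRT7, KRT8 and KRT10 were each found in 16.9% to 17.8% of cells at 2 mM and 17.4% to 18.5% at 0 mM. For KRT7 and KRT8 the draw put 2 mM below 0 mM. Over all possible thinnings the mean was 19.0% and 18.9% for KRT7 and 16.6% and 14.8% for KRT8, which is the other order. For KRT10 the order was the same, with 17.8% and 17.4% in the draw and means of 18.8% and 16.6%. KRT81 was found in 5.88% and 8.05%, and KRT80 in 3% and 1.38%. All cells belong to 1 line, so no cell type that lacks these genes gave a background for free RNA, and the part of free RNA in these shares was not tested.

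**Figure D3:**
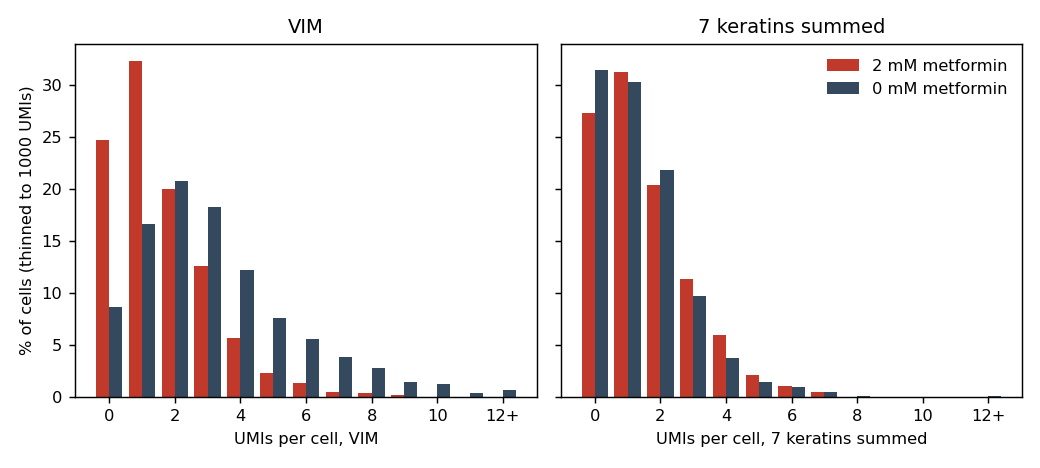
Share of cells (%) by the number of VIM UMIs (left) and of UMIs of 7 keratins (right) per cell after thinning to 1000 UMIs, for 800 cells at 2 mM (red) and 944 cells at 0 mM (dark blue). The VIM bars at 2 mM crowd at 0 and 1, where the 0 mM bars reach past 10, while the keratin bars of both libraries lie over each other.

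Each cell was then placed by which of the 2 counts was larger. Cells with more VIM than keratin UMIs made up 39.0% (35.6% to 42.5%) at 2 mM and 70.9% (67.9% to 73.8%) at 0 mM, a difference of -31.9 points (-38.1 to -25.4). The draw of the thinning moved this value: the mean over all possible thinnings was 38.5% and 67.9%, a difference of -29.4 points, so the single draw lay to the far side. Cells with more keratin than VIM UMIs made up 36.5% (33.2% to 39.9%) at 2 mM and 15.8% (13.5% to 18.3%) at 0 mM. Cells with keratin and no VIM made up 17.1% (14.6% to 19.9%) and 5.72% (4.33% to 7.40%), and cells with both 55.5% (52.0% to 59.0%) and 62.8% (59.6% to 65.9%). A count of 0 at this depth does not show that a cell lacks the transcript.

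Deeper cells gave a finer view of the balance. In cells thinned to 4000 UMIs, 283 at 2 mM and 423 at 0 mM, the median was 6 VIM UMIs (quartiles 4 and 9) at 2 mM and 11 (quartiles 7 and 16.5) at 0 mM. The median was 5 keratin UMIs in both libraries. The VIM share of a cell's VIM and keratin UMIs had a median of 50% (quartiles 38.3% and 65.7%) at 2 mM and 70.4% (quartiles 55.8% and 80.4%) at 0 mM. Single cells of both libraries ran from a share of 0 to one of 100%, so the libraries overlapped widely although their middle ranges were shifted.

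Within a library, the mean keratin count was set against the VIM count of the cells. At 2 mM it was 1.45 in the 198 thinned cells without VIM UMIs, 1.42 in the 259 cells with 1, 1.66 in the 160 cells with 2, 1.5 in the 146 cells with 3 to 4, 1.73 in the 33 cells with 5 to 7, and 1 in the 4 cells with 8 or more. These means had no steady order at 2 mM. At 0 mM the mean was 1.16 in 82 cells without VIM UMIs, 1.16 in 157 cells with 1, 1.19 in 196 cells with 2, 1.35 in 288 cells with 3 to 4, 1.61 in 161 cells with 5 to 7, and 2.03 in 60 cells with 8 or more. Across cells, the Spearman correlation of VIM with the keratin sum was 0.02 at 2 mM (800 cells) and 0.14 at 0 mM (944 cells). These cells share a library and a total of 1000 UMIs, and correlations this weak in sparse counts are given as a description.

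The keratins also varied almost separately from each other. Over all keratin pairs the highest correlation was 0.14, between KRT18 and KRT19 at 2 mM (0.07 at 0 mM), and the lowest was -0.10, between KRT8 and KRT10 at 2 mM (-0.04 at 0 mM). The pair KRT8 and KRT18, which form 1 filament, had 0.04 at 2 mM and 0.10 at 0 mM. No single cell decided a level: the highest cell held 1.34% of the VIM UMIs at 2 mM and 0.979% at 0 mM, and at most 4.55% of any keratin's UMIs (KRT80 at 2 mM).

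Cells of the 2 mM library were shallower, so the levels were also set side by side in cells of like depth. VIM had ratios of 0.569 in cells with 500 to under 1000 UMIs, 0.510 from there to under 2000, 0.438 to under 4000, 0.514 to under 8000 and 0.507 from 8000 on. In all 5 depth ranges VIM was at least 1.5-fold lower, as were 9.76%, 8.84%, 8.16%, 4.05% and 7.32% of the genes compared there. The VIM share of the 8 genes' UMIs lay between 49.7% and 54.0% at 2 mM and between 68.5% and 77.2% at 0 mM. The summed keratin ratio was less even, at 1.81 (1.30 to 2.59) in the shallowest cells, 1.21, 0.983, 1.06, and 1.29 (1.2 to 1.4) in the deepest. The shallowest range rests on 56 cells and 42 keratin UMIs at 0 mM, where 22.7% of genes were at least 1.5-fold higher. KRT19 was past 1.5-fold in cells with 1000 to under 2000 UMIs (2.01, 1.42 to 2.86) and in those with 8000 or more (1.78, 1.48 to 2.15). In these 2 depth ranges 10.5% and 7.82% of genes were at least 1.5-fold higher. KRT18 had a ratio of 2.39 (1.22 to 5.20) in the shallowest cells, from 68 and 10 UMIs. KRT7 had a ratio of 0.694 (0.565 to 0.851) in cells with 2000 to under 4000 UMIs and of 1.49 (1.23 to 1.80) in those with 8000 or more.

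Cells were also grouped by transcripts of the cell cycle and of the interferon response, counted after thinning. In cells with 3 or more UMIs of the G2/M list, VIM stood at 1735 CPM with 2 mM against 3465 CPM with 0 mM. In cells under that number for both the S-phase and the G2/M list it had 1444 and 2958 CPM. VIM ratios were 0.501 (0.480 to 0.522) in G2/M cells, 0.456 (0.394 to 0.527) in S-phase cells without G2/M transcripts, and 0.488 (0.462 to 0.516) in the rest. VIM was thus at least 1.5-fold lower in all 3 groups, as were 4.14%, 11.7% and 4.48% of the genes compared. The keratin sum had a ratio of 1.23 (1.17 to 1.29) in G2/M cells, the one group whose interval lay above 1, against 0.958 (0.816 to 1.13) in S-phase cells and 0.984 (0.922 to 1.05) in the rest.

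Single keratins differed between these groups. KRT7 had 278 and 210 CPM at 2 mM and 0 mM in G2/M cells, a ratio of 1.32 (1.17 to 1.5), but 207 and 262 CPM in cells with neither, a ratio of 0.790 (0.671 to 0.927). In S-phase cells without G2/M transcripts KRT7 was at least 1.5-fold lower, with a ratio of 0.513 (0.325 to 0.790) from 30 and 79 UMIs. The KRT7 interval thus lay above 1 in G2/M cells and below 1 in both other groups. KRT19 had a ratio of 1.52 (1.35 to 1.72) in G2/M cells, where 5.79% of genes were at least 1.5-fold higher, and 1.15 (0.984 to 1.34) in cells with neither. The difference between these groups of cells was not tested, since each has 1 library per dose.

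The ratios of VIM, KRT81 and KRT19 lay apart between the interferon groups. In cells with 3 or more interferon UMIs VIM stood at 1740 CPM with 2 mM against 3015 CPM with 0 mM, a ratio of 0.577 (0.547 to 0.609). In cells with fewer it had 1527 and 3472 CPM, a ratio of 0.440 (0.422 to 0.458). KRT81 had 49.2 and 105 CPM in the first group, a ratio of 0.467 (0.335 to 0.640), but 84.7 and 69.9 CPM in the second, a ratio of 1.21 (0.978 to 1.5). Of the genes compared, 4.61% and 5.10% were at least 1.5-fold lower in the 2 groups. KRT81 was thus lower at 2 mM in cells with 3 or more interferon UMIs, while its interval included 1 in the others. KRT19 had a ratio of 1.14 (0.984 to 1.31) in cells with 3 or more interferon UMIs. In cells with fewer its ratio was 1.60 (1.41 to 1.81), where 6.73% of genes were at least 1.5-fold higher. The difference between the groups was not tested. Cells with 3 or more interferon UMIs were 237 of 800 thinned cells at 2 mM and 448 of 944 at 0 mM.

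**Figure D4:**
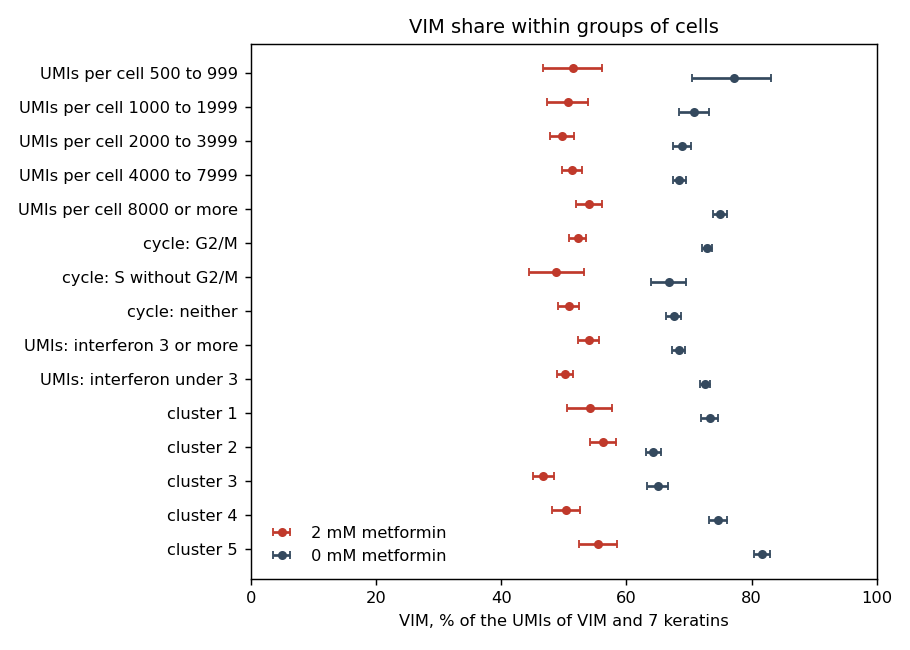
VIM as % of the UMIs of VIM and 7 keratins in groups of cells by depth, cycle transcripts, interferon transcripts and cluster, at 2 mM (red) and 0 mM (dark blue), with exact binomial 95% intervals as bars. In each of the 15 groups the 2 mM point lies below the 0 mM point.

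To see the genes in kinds of cells that they did not define, cells of both libraries were clustered without the 8 genes, KRT86 and VIM-AS1. Of 6 clusters, 5 held at least 50 cells of each library. They are called by number, with genes from their 5 leading ones. Cluster 1 (MTRNR2L12, MGP, MTRNR2L2, MTRNR2L1, MTRNR2L8) was shallow, with medians of 959 and 1528 UMIs at 2 mM and 0 mM. Cluster 2 was led by OASL, GBP4, RSAD2 and IFNL1, and cluster 3 by DKK1, FBXO32, SLC26A2, CCDC80 and SLC1A3. Cluster 4 was led by FAM111B, RRM2, CLSPN, KIAA0101 and CDCA5, and cluster 5 by CCNB1, KIF20A, NEK2, PLK1 and AURKA. Cluster 6 (ALOX5AP, RGCC, ZBED6CL, LCN2, TRIM2) held 109 cells at 2 mM and 4 at 0 mM and was not compared. Its 2 mM cells had 1277 CPM of VIM and, from 70 of the library's 241 KRT81 UMIs, 191 CPM of KRT81.

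VIM was at least 1.5-fold lower at 2 mM in all 5 clusters, with ratios of 0.505, 0.641, 0.512, 0.462 and 0.492 in clusters 1 to 5. Of the genes compared, 13.1%, 6.84%, 5.33%, 6.04% and 11.8% were as low. The smallest difference was in cluster 2, at 1838 CPM with 2 mM against 2865 CPM with 0 mM. The highest VIM level of both doses was in cluster 5, the one led by mitotic genes, with 2220 and 4513 CPM. The VIM share was 46.7% (cluster 3) to 56.3% (cluster 2) at 2 mM and 64.3% (cluster 2) to 81.6% (cluster 5) at 0 mM. The gap between the doses was thus widest in cluster 5, where VIM took 55.5% and 81.6%, and narrowest in cluster 2, at 56.3% and 64.3%. This share also moves with the keratins, and the lowest VIM ratio was that of cluster 4. The keratin sum had a ratio of 1.75 (1.55 to 1.98) in cluster 5, where 9.29% of genes were at least 1.5-fold higher. In cluster 2 the ratio of the sum was 0.896 (0.831 to 0.966), and in clusters 1, 3 and 4 it was 1.17, 1.08 and 1.34.

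KRT19 and KRT7 lay within 1.5-fold over all cells but not in every cluster. KRT19 had 322 and 148 CPM at 2 mM and 0 mM in cluster 3, a ratio of 2.17 (1.75 to 2.71). In cluster 4 it had 280 and 147 CPM (1.91, 1.5 to 2.43), and in cluster 5 422 and 132 CPM (3.19, 2.38 to 4.29). In cluster 2 it had 293 and 336 CPM, a ratio of 0.872 (0.736 to 1.03). KRT19 was therefore past 1.5-fold in 3 of the 5 clusters, in which 12.1%, 8.78% and 9.29% of the genes compared were at least 1.5-fold higher. Cluster 2 held 469 of the 963 KRT19 UMIs at 0 mM, and 205 of 951 at 2 mM. It held 30.4% of the cells at 0 mM and 18.8% at 2 mM.

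KRT7 went both ways. It had 295 and 87.6 CPM in cluster 5, a ratio of 3.37 (2.35 to 4.85) from 77 and 55 UMIs. In cluster 4 its ratio was 1.65 (1.33 to 2.05) and in cluster 1 it was 1.63 (1.2 to 2.21), where 10.5% of genes were at least 1.5-fold higher. In cluster 2 it had 177 and 291 CPM, a ratio of 0.609 (0.494 to 0.747), and in cluster 3 260 and 358 CPM, a ratio of 0.725 (0.611 to 0.861). KRT81 had 68.6 and 134 CPM in cluster 2 (0.512, 0.365 to 0.706) but a ratio of 1.69 (1.11 to 2.53) from 38 and 75 UMIs in the shallow cluster 1. The near-level ratio of KRT7 over all cells thus joined clusters of opposite direction. For KRT81 only clusters 1 and 2 lay clear of 1, on opposite sides, and the intervals of clusters 3, 4 and 5 included 1. The KRT81 ratio over all cells also took in cluster 6, which was not compared and held 70 KRT81 UMIs at 2 mM and 0 at 0 mM. KRT8, KRT10 and KRT18 lay within 1.5-fold in all 5 clusters, between 0.734 and 1.37.

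**Figure D5:**
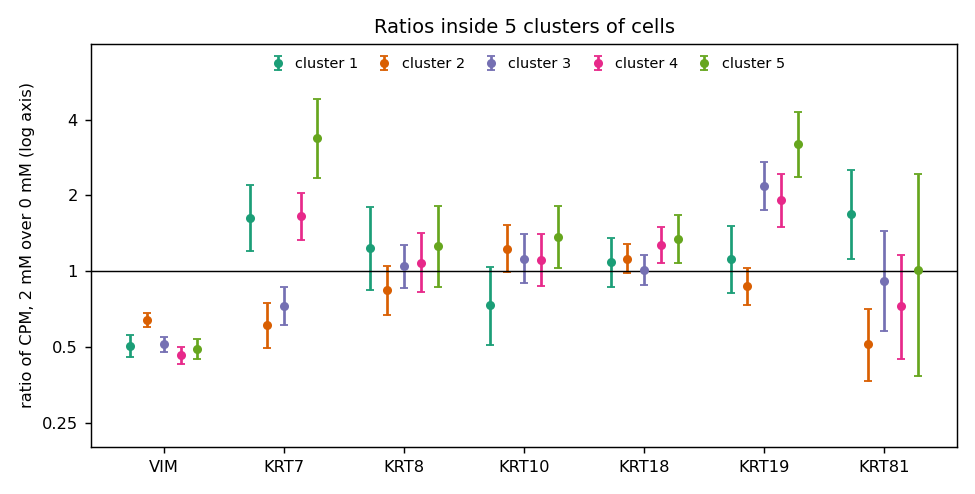
Ratio of CPM, 2 mM over 0 mM (log axis), of VIM and 6 keratins inside clusters 1 to 5, with exact conditional 95% intervals as bars. VIM lies below 1 in each cluster, between 0.462 and 0.641, whereas KRT7 and KRT19 spread from 0.609 to 3.37 and from 0.872 to 3.19.

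The 9 other keratin genes in the table were close to absent. KRT86 led them, and KRT12, KRT13, KRT14, KRT15, KRT16, KRT17, KRT4 and KRT75 had at most 7 UMIs in a library. The basal keratin KRT14 had 1 UMI at 2 mM and 0 at 0 mM. Of 11 other intermediate filament genes in the table, 3 passed the minimum and 0 were past 1.5-fold, against 5.04% higher and 3.31% lower of all genes compared. With so few genes, nothing is read from this count. The 3 were LMNA, which encodes the A-type lamins of the nucleus, at 644 and 857 CPM (0.751, 0.712 to 0.793), LMNB2 (1.14) and SYNM (1.22), a partner of VIM filaments. LMNB2, at 52.7 and 46.3 CPM, passed the minimum through the 2 mM library alone, so its ratio had to lie above 1. The neural filament gene NES had 13 and 3 UMIs and DES 1 and 1.

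No gene compared that anchors filaments was at least 1.5-fold lower at 2 mM, where 3.31% of all genes compared were. With so few genes, nothing is read from this count. Of the list of 12 filament linkers, 5 passed the minimum and 0 were past 1.5-fold, against 5.04% higher and 3.31% lower of all genes compared. All 5 had ratios above 1, as had 52.6% of all genes compared, though PNN lay at 0.988 with TMM factors. PLEC, the plectin that ties filaments to junctions, had 121 and 89.9 CPM (1.34, 1.16 to 1.55), and DST had a ratio of 1.17. TCHP (1.15), MACF1 (1.07) and PNN (1.05) were nearer 1. Of 9 desmosome genes in the table, 4 passed the minimum and 2 were at least 1.5-fold higher, where 5.04% of all genes compared were: the cadherin gene DSG2 at 96.5 and 59.5 CPM (1.62, 1.37 to 1.92) and PKP4 at 51.2 and 33.2 CPM (1.54), which TMM factors put at 1.45. PKP4 passed the minimum through the 2 mM library alone, so it had to be higher there, and nothing is read from the count or the median. DSP, the desmoplakin that binds keratins, had a ratio of 1.17 and PERP one of 0.887. The median log2 ratio was 0.21 for the linkers and 0.43 for the desmosome genes, against 0.02 over all genes compared.

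Of 24 epithelial junction genes in the table, 5 passed the minimum, 2 of them at least 1.5-fold higher and 0 lower, against 5.04% and 3.31% of all genes compared. EHF, an epithelial ETS factor, had 65.9 and 20.4 CPM (3.22, 2.51 to 4.17), and the protease inhibitor gene SPINT2 241 and 156 CPM (1.55, 1.4 to 1.72, and 1.46 with TMM factors). TJP1 (1.24) and CLDN4 (1.02) were within 1.5-fold. CDH1, the epithelial cadherin, had 0 and 2 UMIs, which is at or under the floor of 3 counts in both libraries. The list's median log2 ratio was 0.31. EHF and TJP1 passed the minimum through the 2 mM library alone, so nothing is read from the count or the median.

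Of 21 mesenchymal genes in the table, 15 passed the minimum, 4 at least 1.5-fold higher and 3 lower, against 5.04% and 3.31% of all genes compared, with a median log2 ratio of 0.12. VIM is not in this list. Lower with VIM were FOSL1 (0.566), ZEB1 (0.587) and the receptor kinase AXL (0.641), and higher were CDH11 (11.2), TNC (2.51) and S100A4 (2.11), with FN1 (1.92) as the fourth. CDH11, a mesenchymal cadherin, had 182 and 22 UMIs. CDH11 and TNC passed the minimum through the 2 mM library alone, so nothing is read from the count of higher genes or the median. Of 19 kinases, phosphatases and 14-3-3 proteins that act on filaments, 14 passed, 0 at least 1.5-fold higher and 2 lower, against 5.04% and 3.31% of all genes compared. The 2 were AURKB (0.611) and CDK1 (0.623), mitotic kinases that phosphorylate VIM. Cells with 3 or more UMIs of the G2/M list were 380 of 800 thinned cells at 2 mM and 536 of 944 at 0 mM. The part of this in the ratios of AURKB and CDK1 was not tested. The 14-3-3 gene YWHAE lay at 0.697 (0.657 with TMM factors, which is past 1.5-fold), and ROCK1 (1.23), SFN (1.13) and PAK2 (1.12) had the highest ratios of the list. Its median log2 ratio was 0.05, and -0.04 with TMM factors.

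Genes whose counts went most with VIM across thinned cells were sought among 684 other genes with at least 200 CPM in both libraries, by the lower of the 2 libraries' Spearman correlations. PRKCDBP, which encodes a caveola protein, came first, with 0.16 at 2 mM and 0.11 at 0 mM. TUBA1B (0.11 and 0.20), the annexin gene ANXA2 (0.10 and 0.24), HMGA1 (0.10 and 0.12) and IGFBP7 (0.10 and 0.13) followed. For KRT18 the 5 genes were ANXA1, LDHA, PRELID1, SRSF7 and CD59, with correlations between 0.06 and 0.10, and for KRT81 they were NQO1, NASP, NDUFA12, S100A6 and NNMT, between 0.05 and 0.11. Of the 5 genes nearest to VIM, 3 were at least 1.5-fold lower at 2 mM, where 3.31% of all genes compared were: PRKCDBP with 227 and 347 CPM, HMGA1 with 260 and 503 CPM, and IGFBP7 with 954 and 1583 CPM. That share is over the 4105 genes past the minimum and not over the 684 searched, for which it was not computed. Nothing is therefore read from this count.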

How the data were processed

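PCR was done on beads before a Nextera XT library step, per the labels' protocols. Tools named in the submitters' processing notes are STAR 2.5.0a and bcl2fastq, with build hg19. The authors deposited whole UMI counts per gene and barcode. How barcodes were chosen and UMIs collapsed, which annotation was used and whether strand counted: not given in the sources used here. Sequence identities are from GENCODE release 29 on GRCh38, not hg19.

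Kept were barcodes from 500 UMIs and 300 genes up, 991 and 1000 of 1000 per library (2 mM, 0 mM). Counts were summed over cells and scaled to CPM. Ratios have exact conditional Clopper-Pearson intervals, sums exact Poisson intervals and shares exact binomial intervals. They treat UMIs as separate draws and ignore how cells and cultures vary, so they are too narrow. No test was run with 1 library per dose. At least 1.5-fold is called higher or lower. Clustering used scanpy 1.11.5 (2000 variable genes, 20 components, 15 neighbours, Leiden resolution 0.5), and TMM factors edgeR 4.0.16. No doublet caller was run, so doublets remain. The interval and thinning were tested on simulated data. Named genes are the 8 genes, up to 3 members with the highest and 3 with the lowest ratio of each list, and the 5 genes most correlated with VIM, KRT18 and KRT81. NES, DES, CDH1, FN1 and marker genes were named after their values were seen. The members and lists were chosen with earlier results of these data known. Some leading genes, list genes and sequences are not reported here.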

Additional observations from a re-analysis of the deposited data

How the results depend on the processing

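The VIM ratio (0.488 as reported) kept its direction under all alternatives run, at 0.460 with TMM factors, 0.464 with median-of-ratios size factors and 0.440 in cells with fewer than 3 interferon UMIs. The summed keratin ratio (1.12) was 1.06 with TMM factors, 1.07 with size factors and 1.08 once the deepest 5% of barcodes were left out. It was 0.979 in cells with fewer than 3 G2/M UMIs, on the other side of 1; the cause was not tested. The VIM share difference (-19.4 points) was -16.9 points in cells with fewer than 3 G2/M UMIs, -22.4 points in cells with fewer than 3 interferon UMIs and -13.7 points against KRT8 and KRT18 alone. The share of cells with more VIM than keratin UMIs differed by -36.7 points without thinning and by -26.5 points with KRT8 and KRT18 as the only keratins, with its other alternatives in between. The first 3 values stayed inside their intervals with all deposited barcodes, a minimum of 1000 UMIs and a maximum of 10% mitochondrial UMIs. They also did so with equal weights per cell and without cluster 1 (added after seeing the data). A total without mitochondrial and ribosomal protein genes kept both ratios inside theirs, and it cannot change the share. Merging barcodes 1 base apart cannot change these pooled values, so it is no check on them.

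Single keratins stayed within 1.5-fold under all alternatives except KRT19 and KRT80. KRT19 reached 1.60 in cells with fewer than 3 interferon UMIs. KRT80 reached 1.63 in cells with fewer than 3 G2/M UMIs and 1.61 with equal weights per cell. KRT7 lay on the other side of 1 in 5 of 12 alternatives, down to 0.744 in cells with fewer than 3 G2/M UMIs, where KRT8 was at 0.948. Merging barcodes, counted among the 12, cannot move a summed ratio. KRT81 was at 1.21 in cells with fewer than 3 interferon UMIs. No processed copies of KRT8 or KRT18 could be added, since 0 rows bear their names, and no library could be left out with 1 per dose. No paired analysis was possible because the labels give no replicate numbers and each dose has 1 library. The depth limits KRT80 and KRT81, with 173 and 612 UMIs over both libraries.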
